A study of Drosophila melanogaster with 2 samples.

Results

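The Rab genes encode small GTPases that mark the membranes of the secretory and endocytic system. A Rab protein is active when bound to GTP, is loaded by an exchange factor, switched off by a GTPase activating protein, and taken off the membrane by GDI. When active it recruits effectors that tether, move and fuse vesicles. The genes described here were chosen by symbol, as the protein-coding genes of the Ensembl annotation of BDGP6 (dm6) named Rab or RabX with a number and at most 2 further letters. The rule found 33 of 13968 protein-coding genes, and left out Rab3-GEF, Rab3-GAP and Rab3GAP1, which encode regulators.

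The binding of Eip93F, an ecdysone-induced transcription factor of metamorphosis also called E93, was measured at these genes by chromatin immunoprecipitation and sequencing. The samples were whole prepupae of both sexes and unknown age from the strain Eip93F-MiMIC-GFP, in which an exon for eGFP was inserted into an intron of Eip93F so that the gene yields a fusion protein. The fusion was precipitated with an antibody to GFP from chromatin sonicated to 200 to 800 bp, in 2 biological replicates of 1 group. There is no second genotype, stage or treatment, and whole animals mix all tissues, so a signal cannot be assigned to a cell type.

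The authors' reproducible set held 3401 peaks on dm6, ranked here by the authors' own signal per peak, which ran from 89.8 to 1529 with a median of 129. The full lists of each replicate and of both replicates pooled held 30000 entries each, background included. Signals are comparable only within a list, so the replicates were set side by side by rank, where 1 is the strongest entry. A peak was counted for a gene if its summit, the position of highest signal, fell inside the gene or no more than 1000 bp away. No read totals came with the lists and the depth of each library is unknown.

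There is no untagged strain among the lists analysed here, and the labels leave unsaid how far the replicates were raised or collected apart.

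Of the 33 Rab genes, 5 held a peak of the reproducible set, namely Rab5, Rab11, Rab14, Rab30 and Rab32. This was 15.2% of them, against 19.9% of all protein-coding genes, and 6.2 genes (18.8%) when each Rab gene was given the share of other genes in its own of 20 span classes. The count lay close to that for genes of like length, and no test was made of the list. The 33 include RabX2 and the 5 Rab9-named genes on the X, which are near copies. A missing peak there is no measure of binding, for the reason given below. The leading 3401 entries of replicate 1 alone gave 5 genes (15.2%, against 20% of all genes), and those of replicate 2 alone gave 6 (18.2%, against 19.9%).

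Rab5, which directs fusion of early endosomes, held the strongest Rab peak. It lay on 2L at chr2L:2363700-2363880, with a signal of 314 and rank 228 in the reproducible set. The signal was 198 in replicate 1, at rank 182, and 114 in replicate 2, at rank 385. Both replicates thus placed it well inside their leading 3401 entries, with summits 11 and 21 bp from the pooled one. The gene lies on the reverse strand at 2359142 to 2365273 and has 6 annotated start sites. The summit was 255 bp upstream of an internal start site at 2363504 and in intron 1 of 6 of its transcripts.

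Rab11, which acts at recycling endosomes, held a peak at chr3R:21112473-21112882 with a signal of 145 and rank 1324. The signals were 73.7 in replicate 1 (rank 1649) and 72.1 in replicate 2 (rank 1277). The summits of both replicates lay within 6 bp of the pooled summit. That summit was 1270 bp downstream of the single start site of the gene, which spans 21111408 to 21116146 on the forward strand, and fell in intron 1 of one transcript and intron 2 of the other.

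Rab14, known in mammals for traffic between endosomes and the Golgi, held a peak at chr2L:14355630-14356039 with a signal of 127 and rank 1773. The signals were 66.0 in replicate 1 (rank 2060) and 63.5 in replicate 2 (rank 1716). Ranks were close in the replicates, while the summit of replicate 2 lay 97 bp from the pooled one and that of replicate 1 lay 6 bp from it. The summit was 690 bp downstream of the first start site, in intron 1 of the transcript that begins there and in an intron of lncRNA:CR44851. It lay upstream of the start sites of the other 2 transcripts.

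Rab30, whose protein is found at the Golgi, was counted for a peak that lay inside its neighbour. The peak, at chr2L:7033322-7033731 with a signal of 108 and rank 2446, had its summit 921 bp upstream of the Rab30 start site and in an intron of Caper, which encodes an RNA-binding protein of splicing. The nearest protein-coding start site was that of Caper, at 806 bp. The replicates were farther apart here than at Rab5, Rab11 and Rab14. Its rank was 4389 in replicate 1 and 1930 in replicate 2. The summit of replicate 2 lay 155 bp from the pooled one, and that of replicate 1 at the same base.

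The bases around these 4 summits are given next, to show what sequence lies under the peaks. Each run is 101 bases of the forward strand of dm6, read from the RefSeq assembly, and the capital marks the summit. They cover chr2L:2363709-2363809 for Rab5, chr3R:21112628-21112728 for Rab11, chr2L:14355785-14355885 for Rab14 and chr2L:7033477-7033577 for Rab30.
Rab5: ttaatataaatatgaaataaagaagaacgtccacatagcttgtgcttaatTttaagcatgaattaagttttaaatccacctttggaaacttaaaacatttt
Rab11: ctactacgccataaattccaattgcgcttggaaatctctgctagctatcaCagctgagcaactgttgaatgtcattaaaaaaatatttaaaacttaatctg
Rab14: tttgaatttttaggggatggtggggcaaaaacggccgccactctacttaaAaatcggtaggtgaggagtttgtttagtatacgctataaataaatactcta
Rab30: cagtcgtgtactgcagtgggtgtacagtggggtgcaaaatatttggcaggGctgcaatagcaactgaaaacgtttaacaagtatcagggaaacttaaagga

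The windows were searched on both strands for 6 words, and none of the 4 held any of them. GATAAG, a site of GATA factors, lay within 50 bp of 341 of all 3401 summits and in 5.04% of windows 500 bp to either side. It was found at 0 of the 6 Rab summits, a number too small to set against that share. The GAGA factor word GAGAG lay near 11.9% of all summits and in 14.8% of flanking windows. The shares were 2.53% near summits and 2.37% in flanking windows for the AP-1 word TGANTCA. Near all summits the E-box CACGTG had a share of 1.0%, the DREF word TATCGATA one of 0.647%, and the Zelda word CAGGTA one of 2.15%. In flanking windows these shares were 1.37%, 0.279% and 2.51%. No match says only that these letters are not in the window. The GC content of the window was 24.8% at Rab5, 34.7% at Rab11, 38.6% at Rab14 and 44.6% at Rab30. The median over all summits was 34.7%, with quartiles of 28.7% and 42.6%, so the Rab5 window was poorer in G and C than most and the Rab30 window richer.

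Rab32, which acts at pigment granules and other lysosome-related organelles, was the only Rab gene with 2 peaks of the reproducible set. It spans 9177864 to 9186342 on the reverse strand of 2R. The first peak, at chr2R:9186142-9186551, had its summit 5 bp upstream of a start site shared by 3 of its transcripts, with a signal of 100 and rank 2813. Its signals were 57.8 in replicate 1 (rank 2696) and 38.3 in replicate 2 (rank 4681). The summits of replicates 1 and 2 lay 40 and 92 bp from the pooled one. GAGAG lay 40 bp from the pooled summit.

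The second Rab32 peak, at chr2R:9177196-9177605, lay past the 3′ end of the gene, 140 bp from the start site of Rme-8, which encodes an endosomal DnaJ protein. Its signal was 92.4, at rank 3252, with ranks of 3583 in replicate 1 and 6145 in replicate 2. Replicate 2 placed both Rab32 peaks below its leading 3401 entries, and replicate 1 the second. A match to TGANTCA began 7 bp from the second summit.

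Of the 6 Rab summits, 3 were in promoters, that is within 500 bp of any annotated start site, and 3 in introns. Over the whole set 47.1% were in promoters and 39.0% in introns. Only Rab5 and Rab32 held a summit within 500 bp of a start site of their own. All 6 had an entry at the summit in each replicate's full list. The 3 strongest ranked within the leading 3401 entries of both replicates, and the other 3, at Rab30 and Rab32, did not.

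**Figure D1:**
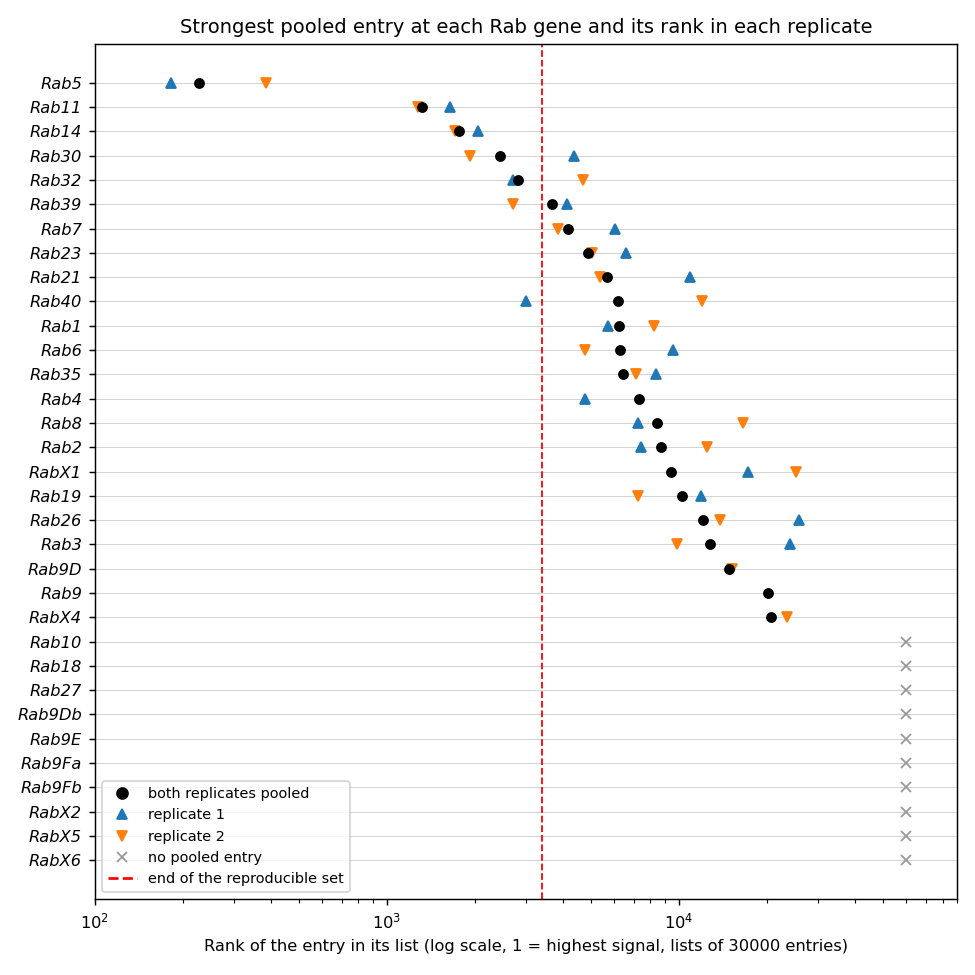
Rank of the strongest pooled entry at each of the 33 Rab genes (black circles), with the rank of the entry at the same summit in replicate 1 (blue) and replicate 2 (orange), on a log axis. Crosses at the right edge mark the 10 genes without a pooled entry and carry no rank. The dashed line is the end of the reproducible set, and 5 genes lie to its left.

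Below the threshold of the reproducible set, entries were found at most of the other Rab genes. The counts that follow also include the 5 Rab genes with a peak of the set. The shares over all genes likewise include genes with such a peak. A pooled entry of any rank lay at 23 of the 33 (69.7%), against 60.7% of all protein-coding genes and 19.7 genes (59.6%) from the span classes. An entry of rank 10000 or better lay at 17 (51.5%), against 38.0% of all genes and 12.2 genes (37.1%) from the span classes. These entries include background by the authors' own description of the lists, and no test was made.

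The entries nearest to the threshold were those of Rab14 and Rab39. A second Rab14 entry, inside the gene at chr2L:14356158-14356567, had a signal of 89.2 and rank 3452, just outside the set, with ranks of 3644 and 3796 in replicates 1 and 2. The weakest Rab peak inside the set was the second of Rab32, with a signal of 92.4. Rab39, whose protein acts at lysosomes, had its strongest entry on the X at chrX:7734353-7734762, with a signal of 85.9 and rank 3673. It ranked 4143 in replicate 1 and 2698 in replicate 2. Its summit was 365 bp upstream of the Rab39 start site, inside Pdp and 93 bp from the start site of that gene, which encodes a pyruvate dehydrogenase phosphatase. The 101 bases at chrX:7734508-7734608, shown for the strongest entry at a Rab gene with no peak of the set, held none of the 6 words and had a GC content of 22.8%.
Rab39: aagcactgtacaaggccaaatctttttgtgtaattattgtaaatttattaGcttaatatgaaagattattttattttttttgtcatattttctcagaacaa

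In all, 18 of the 33 Rab genes held weaker pooled entries only. Of the 10935 other protein-coding genes of 791 to 16254 bp, 4549 did so. The strongest entries of the 18 Rab genes had signals from 27.3 to 85.9 and ranks from 3673 to 20733. For 14 of the 18 (77.8%) there was an entry at the same summit in both replicates. The strongest entry lay within 500 bp of a start site of the gene itself for 11 of them, which were Rab39, Rab7, Rab23, Rab40, Rab35, Rab4, Rab2, Rab19, Rab26, Rab3 and RabX4. The protein-coding start site nearest to it was that of the Rab gene for 13 of the 18. Over the 4549 other protein-coding genes of 791 to 16254 bp with weaker entries only, the strongest was in both replicates for 56.2%, within 500 bp of an own start site for 46.0% and nearest to an own start site for 64.0%. These differences were not tested.

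Of the other genes grouped here under endosomes and recycling, Rab7, which directs traffic from endosomes to lysosomes, had an entry 18 bp from its start site with a signal of 79.9 and rank 4167. It ranked 6069 in replicate 1 and 3857 in replicate 2. Rab21, which acts in the traffic of integrins, had its entry at the 3′ end of the gene at rank 5689, with ranks of 10884 and 5364 in the replicates. Rab35, which acts in recycling to the cell surface, had one 93 bp from its start site at rank 6439, with ranks of 8347 and 7156. All 3 lay below the set in both replicates. In the group of late endosomes and lysosomes, Rab9, which in mammals returns cargo from late endosomes to the Golgi, had a single pooled entry at rank 20225, inside CG10237, with none at that summit in either replicate.

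Among the genes of the endoplasmic reticulum and Golgi, Rab1 (traffic from the endoplasmic reticulum), Rab6 and Rab2 (Golgi) had their strongest entries at ranks 6243, 6284 and 8661. In replicates 1 and 2 these ranked 5703 and 8208 for Rab1, 9558 and 4767 for Rab6, and 7400 and 12498 for Rab2. None of these was near the threshold in both replicates. Rab18, known for its link to lipid droplets, held no pooled entry, and had 1 of rank 8169 in replicate 1 alone.

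Of the genes of secretion, none of Rab3, Rab8, Rab10, Rab26 and Rab27 held a peak. Rab8, which acts in exocytosis, held 7 pooled entries, the strongest at rank 8399. Rab26 and Rab3, which act at secretory and synaptic vesicles, had theirs at ranks 12131 and 12820, respectively 403 and 272 bp from a start site of the gene. In replicates 1 and 2 these strongest entries ranked 7277 and 16616 for Rab8, 25829 and 13865 for Rab26, and 24062 and 9823 for Rab3. Rab10 and Rab27 held no pooled entry, although Rab10 had 1 entry of rank 18145 in replicate 1 alone. Rab26 is the longest Rab gene, at 16254 bp, and 40.5% of other genes in its span class held a peak.

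By role, 3 of the 7 genes of endosomes and recycling held a peak, against 1.48 from their span classes, and all 7 held a pooled entry. Peaks lay at 1 of 5 genes of the endoplasmic reticulum and Golgi (0.819 from span), 1 of 3 of late endosomes and lysosomes (0.652) and 0 of 5 of secretion (1.37). Among the 13 genes given no role here were RabX2 and the 5 Rab9-named genes on the X, which are near copies. A missing entry at those copies is no measure of binding, for the reason given below. Over all protein-coding genes, 19.9% held a peak and 60.7% a pooled entry. None of the 13 held a peak, and 6 of them held a pooled entry. RabX1 had its strongest at rank 9384, ranked 17295 and 25199 in the replicates, and RabX4 at rank 20733 inside Kaz, absent at that summit from replicate 1 and ranked 23509 in replicate 2. RabX6 held no entry in any list. Rab7, which held no peak, was counted with endosomes and recycling and not with late endosomes and lysosomes. These groups are too small for the counts to be told apart.

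The replicates placed some Rab genes very differently. The strongest Rab40 entry lay 222 bp upstream of the Rab40 start site. The nearest protein-coding start site was that of CG42258, at 194 bp. The entry ranked 2991 in replicate 1 and 12031 in replicate 2, and 6196 in the pooled list. Rab40 encodes a Rab that joins a ubiquitin ligase. The strongest Rab4 entry, 40 bp from the start site of this gene of rapid recycling, had a signal of 56.2 and rank 7303 in the pooled list. That entry ranked 4766 in replicate 1 and had no counterpart at its summit in replicate 2. RabX5 had an entry of rank 3940 in replicate 1, but none in replicate 2 or in the pooled list. The RabX5 entry was thus seen in 1 library only.

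**Figure D2:**
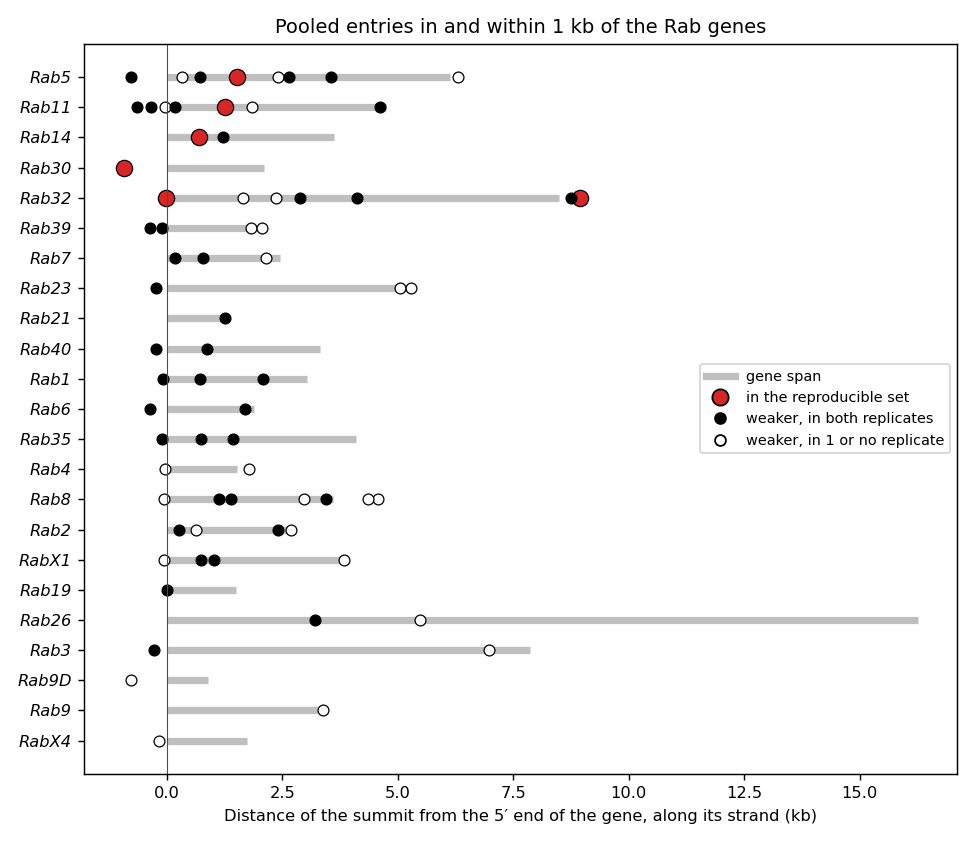
Distance of each pooled summit from the 5′ end of its gene in kb, along the strand of the gene, for the 23 Rab genes with an entry. Grey bars are gene spans, red circles the summits in the reproducible set, black circles weaker entries at the same summit in both replicates and open circles weaker entries in 1 or no replicate. Rab5, Rab11 and Rab14 carry their red circle inside the gene.

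The 33 genes held 71 pooled entries, 6 of them in the reproducible set and 65 weaker. Rab5 held 8, and Rab11, Rab32 and Rab8 held 7 each. At Rab5 the entry next in strength had a signal of 78.7 at rank 4268, lay upstream of the gene in Axud1, and ranked 4286 and 4549 in the replicates. Of the 65 weaker entries, 38 (58.5%) had an entry at the same summit in both replicates and 24 in 1 of them. At the other protein-coding genes of 791 to 16254 bp, the span range of the Rab genes, 45.3% of 11159 weaker entries were found in both. Promoters held 53.8% of the weaker Rab entries, exons 24.6% and introns 12.3%, against 44.0%, 17.7% and 30.9% at those other genes. Entries that lie close together can share an entry of a replicate, so they are not independent, and no test was made.

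The share of genes with a peak rose with gene length. The Rab genes had a median span of 2445 bp, and all protein-coding genes 2164 bp. Of the 15 Rab genes under 2000 bp none held a peak, against 10.9% of all such genes. Of the 13 from 2000 to under 5000 bp 3 did, against 21.2%, and of the 5 of 5000 bp or more 2 did, against 35.1%. The 15 genes under 2000 bp include RabX2 and the 5 Rab9-named genes on the X. A missing entry at those near copies is no measure of binding, for the reason given below. The span limits were chosen after the values were seen.

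**Figure D3:**
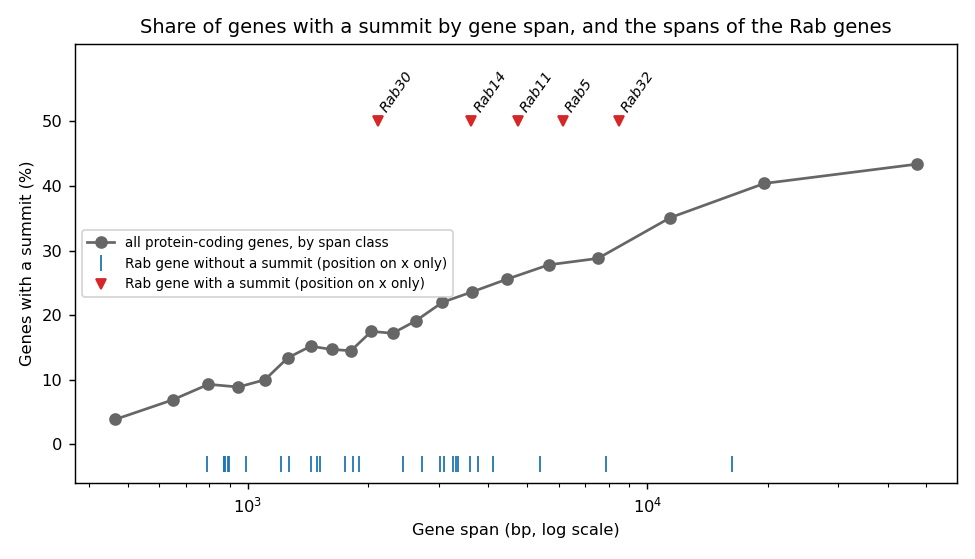
Percent of protein-coding genes with a summit of the reproducible set in 20 span classes (grey, plotted at the median span of the class, log axis in bp). Triangles and ticks give the spans of the Rab genes with and without a summit, and their height carries no value. The 5 genes with a summit are longer than 2000 bp.

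The X chromosome held 13 of the 33 Rab genes, none with a peak and 8 with no pooled entry. Over all protein-coding genes on the X, 19.4% held a peak and 44.5% had no pooled entry. The 8 included RabX2 and 4 of the 5 Rab9-named copies on the X, Rab9Db, Rab9E, Rab9Fa and Rab9Fb. The fifth, Rab9D, had an entry of rank 14824, 780 bp upstream of its start site, that was absent at that summit from replicate 1. The 5 Rab9-named genes are near copies, with 85.2% to 99.4% identical bases in pairwise alignments, and RabX2 shares 86.6% to 89.4% with them. How reads that map to more than 1 copy were treated is not given in the sources used here, so a missing entry at these genes is no measure of binding.

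Genes listed under Rab regulation or as Rab effectors were set beside the Rab genes, from lists chosen with earlier results of these data known. A place in a list does not by itself show that a gene acts on a Rab protein. Of 21 exchange factor genes matched, 3 held a peak (4.64 from span classes). These were pcs (signal 271), Mon1 (196) and gry (188). Mon1 is part of the exchange factor for Rab7, and gry encodes a subunit of the TRAPP complex. Each of the 3 ranked within the leading 3401 entries of both replicates. The leading entries of replicate 1 alone gave 5 of the 21 genes, and those of replicate 2 alone gave 4.

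Of 15 genes listed under GTPase activating proteins, 7 held a peak (4.23 from span classes), led by Evi5 (signal 185), TBC1d7 (173), TBC1D23 (117) and RN-tre (rank 2185). The RN-tre summit lay inside mam. Of 6 genes of prenylation, escort and GDI, 2 held a peak (1.16 from span classes), Rep (111), the Rab escort protein, and Gdi (94.1), the GDP dissociation inhibitor that takes Rab proteins off membranes.

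Of 45 genes of effectors and tethers, 17 held a peak (11.7 from span classes). Rbsn-5, an effector of Rab5, had the strongest, in a promoter at chr2L:8162755-8162874 with a signal of 388, rank 134, and ranks of 210 and 76 in the replicates. That is a higher rank than that of Rab5 itself. Vps33B (278), Rip11 (158), an effector of Rab11, and Mical (143) followed.

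Of 34 other small GTPase genes, 12 held a peak (35.3%; 7.13 genes, or 21.0%, from span classes). These included Arl1, an Arf-like gene of the Golgi, which had a promoter peak with a signal of 408 at rank 111, and ranks of 128 and 102 in the replicates. They also included Rheb, with a signal of 156, and Arl5, with 140. The leading entries of replicate 1 alone gave 8 of the 34 genes, close to the 7.13 from span classes for the reproducible set. Those of replicate 2 alone gave 12. For the Rab genes the same counts were 5 in replicate 1 and 6 in replicate 2, of 33. The share of the Rab genes with a peak of the reproducible set was 15.2%. The difference between the families was thus smaller in replicate 1 alone, and it was not tested.

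**Figure D4:**
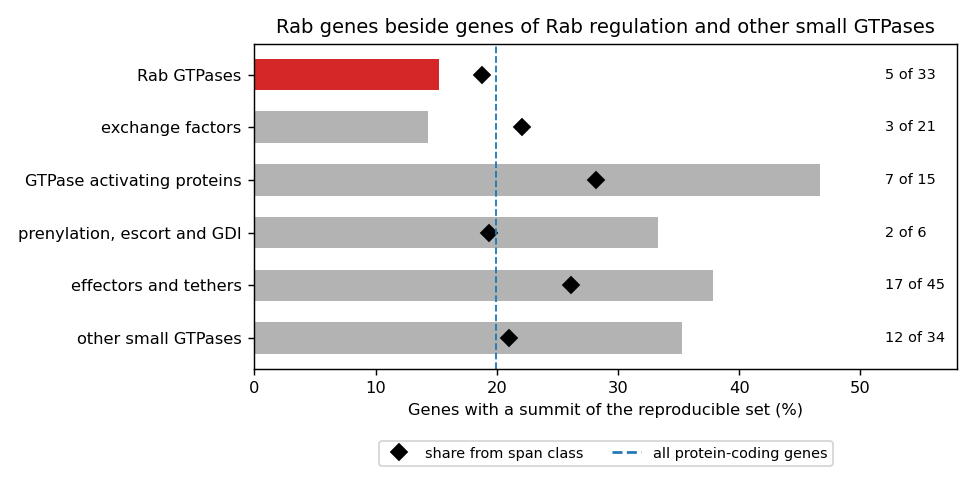
Percent of genes with a summit of the reproducible set for the Rab genes (red) and for 5 lists of related genes (grey), with counts at the right. Diamonds give the share expected from span class alone and the dashed line the 19.9% of all protein-coding genes. The Rab bar ends below both marks.

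Some Rab genes lie next to genes of these lists, and their entries can lie between them. Rab23, which acts in planar polarity, and plx, which encodes a TBC domain protein, are read in opposite directions 420 bp apart on 3R. The strongest Rab23 entry, with a signal of 72.2, rank 4904 and ranks of 6571 and 5026 in the replicates, lay between them, 229 bp from the start site of Rab23 and 192 bp from that of plx. Rab19 overlaps the 3′ end of Arl5 on 3L, and had its own entry 4 bp from its start site at rank 10219, while the Arl5 peak lay in the Arl5 promoter. Sec15, which encodes an exocyst subunit that binds Rab11, lies 3435 bp from Rab11 and, outside the naming rule and picked after its values were seen, held a peak of its own at chr3R:21108033-21108442 with a signal of 114, which had no match at its summit in replicate 1 and ranked 1762 in replicate 2.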

How the data were processed

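Per the labels, chromatin of 2 biological replicates was precipitated with an antibody to GFP. The authors called peaks against a control alignment for each replicate and for both pooled, and derived the reproducible set by the irreproducible discovery rate, per the deposited notes. The deposited signal per peak and the deposited −log10 q per peak come from the authors' caller. The sources used here do not name the aligner or the caller. Only the dm6 lists were used. Depth is unknown.

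Summits (start plus offset) were linked to protein-coding genes of the Ensembl annotation, without transposable elements, with Python 3.11.15, pandas 2.3.3 and Biopython 1.88. Arm lengths of the RefSeq assembly contained all genes and peaks. Linking was checked on planted summits. A replicate was said to hold a peak when an entry of its list covered the summit.

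The members and lists were chosen with earlier results of these data known. Every Rab gene with a peak is named with its values, every other with its strongest pooled entry where it has one, and up to 4 genes per list, 1 of which is not reported here. Listed names were matched by symbol or RefSeq synonym and names without a match were left out. With 1 group, no test was made.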

Additional observations from a re-analysis of the deposited data

How the results depend on the processing

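The count of Rab genes with a peak followed the rule that links summits to genes. With the gene span alone it was 3 (Rab5, Rab11 and Rab14), against 2.19 from span classes and 9.13% of all genes. Within 5000 bp it was 11, against 11.4 from span classes and 34.7% of all genes. Within 500 bp of an own start site it was 2 (Rab5 and Rab32), against 4.24 from span classes and 12.7% of all genes. The nearest protein-coding start site gave 4, against 4.51 from span classes and 15.0% of all genes. Any base of the peak gave 5, against 6.47 from span classes and 20.7% of all genes. With the stronger 1700 peaks the count was 2 (Rab5 and Rab11), against 3.39 from span classes and 11.6% of all genes. Leaving out 1 replicate gave 5 to 6. Of the main 5 genes, replicate 1 alone kept 4 (without Rab30, and with Rab40), and replicate 2 alone gave all 5 and Rab39, though Rab32 there by another entry (rank 2753) and not by its peaks of the set. As many pooled entries from past rank 10000 gave 10 genes, against 5.04 from span classes and 18.0% of all genes. The count from span classes was 6.28 with 10 classes and 6.23 with 40. Promoters held 5 of the 6 summits with 1000 bp and 2 with 250 bp. A 25 bp window left 0 summits with GAGAG, and a 100 bp window added 1 with CACGTG (Rab5) and 1 with TATCGATA (Rab32). Including the 3 regulator genes named after a Rab left the count at 5, against 7.26 from span classes and 19.9% of all genes. With 50% reciprocal overlap, 5 of the 6 peaks were found in replicate 2. The causes of these differences were not tested. No paired analysis was possible because the labels give 1 group. Unknown depth limits what an absent entry means.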
